A study of Mus musculus with 20 samples.

Results

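Myc and 37 genes whose proteins build ribosomes were followed in bone marrow cells after irradiation of mice. The 38 genes were listed by name, with no measured value as a criterion but with earlier results of these data known. All 38 had a probe set, and they are 38 of the 18193 genes tested on the arrays. By role they were Myc itself, 5 genes of RNA polymerase I transcription, 6 of the nucleolar scaffold and its regulators, 8 of the small nucleolar ribonucleoproteins (snoRNPs), 10 of small subunit assembly and 8 of large subunit assembly. RNA of cells labelled as VE-cadherin+ endothelial cells, sorted from the bone marrow of C57/Bl6 mice aged 8 to 10 weeks, was hybridised to 20 Affymetrix arrays. The 4 groups held 5 arrays each: mice that were not irradiated, and mice taken 6 hours, 24 hours and 14 days after total body irradiation with 5 Gy. No transgene, deletion or drug is named for any group. Arrays of 1 group are labelled as biological replicates, but whether each stands for 1 mouse or a pool is not stated, so the p-values measure the spread between these samples.

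A ribosome starts in the nucleolus, where RNA polymerase I transcribes a long precursor RNA. SnoRNPs then guide the methylation, pseudouridylation and cleavage of that precursor while assembly factors fold it onto ribosomal proteins into the small and the large subunit. Myc is a transcription factor that, with its partner Max, binds DNA elements called E-boxes and is known to drive many of these genes, and ribosome production is high in dividing cells and in precursors of red and white blood cells.

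The deposited values are linear probe set signals that share 1 trimmed mean across arrays, while the median signal of an array fell from 177 ± 10.1 (SD, n = 5) without irradiation to 149 ± 9.23 at 6 hours, 135 ± 5.18 at 24 hours and 94.5 ± 8.38 at day 14. Spiked hybridization controls averaged 12.8 on the log2 scale without irradiation and at 6 hours, 12.2 at 24 hours and 12.1 at day 14, and the Gapdh 3′ minus 5′ difference was 1.33, 1.58, 0.77 and 0.89 in the same order. Because these properties moved with the groups, directions were checked after quantile normalization and after centring each array on its median. Centring raised the median change of all genes by 0.25 (log2) at 6 hours, by 0.38 at 24 hours and by 0.90 at day 14 against the non-irradiated group. All 15 endothelial markers were above background on every array, Cdh5 (VE-cadherin) at a mean signal of 3186 without irradiation, 8954 at 6 hours, 4891 at 24 hours and 1293 at day 14. Transcripts of other cells were present too: Ptprc (CD45, on leukocytes) had a mean signal of 4785 and Klf1 (an erythroid transcription factor) one of 5693 without irradiation. In such samples fewer cells of a type and less RNA per cell cannot be told apart.

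Since Myc and Max bind the E-box, the promoters of the 38 genes were searched for it. RefSeq windows (build GRCm38.p6, 250 bases before to 50 after the start) were found for 33 of the 38. The entries for Fbl, Bop1, Myc, Npm1 and Rrp12 were not matched. CACGTG, which reads the same on both strands, was present in 8 of 33 genes (24.2%), in 18.3% of 93 other ribosome biogenesis genes with a window, in 10.2% of 14452 tested genes and in 8.09% of the 27025 genes of the table. A second form, CACGCG on either strand (CGCGTG on the opposite one), which cannot overlap the first at the same bases, was present in 11 of 33 (33.3%), against 30.1%, 16.2% and 10.5% in the same 3 backgrounds. The windows of the 33 genes had a median GC content of 58.3%, close to the 58.7% of all tested genes. The longest stretch shown is that of Rrn3, whose product recruits RNA polymerase I, because it held 2 copies of the E-box. All sequences run 5′ to 3′ on the strand of the gene, with the motif in capitals.

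Rrn3, chr16:13780464-13780676, plus strand: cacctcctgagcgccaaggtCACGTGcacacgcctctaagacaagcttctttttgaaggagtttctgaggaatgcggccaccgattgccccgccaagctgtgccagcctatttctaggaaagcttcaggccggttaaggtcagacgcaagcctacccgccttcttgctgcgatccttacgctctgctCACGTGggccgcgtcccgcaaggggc
Pes1, chr11:3963965-3963994, plus strand: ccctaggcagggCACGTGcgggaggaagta
Nop2, chr6:125131803-125131848, plus strand: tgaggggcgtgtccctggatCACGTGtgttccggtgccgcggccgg
Mybbp1a, chr11:72441347-72441376, plus strand: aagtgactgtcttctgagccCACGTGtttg
Utp20, chr10:88826765-88826794, minus strand: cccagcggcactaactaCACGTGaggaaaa
Wdr43, chr17:71616220-71616249, plus strand: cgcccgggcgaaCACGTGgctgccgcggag
Tsr1, chr11:74898092-74898121, plus strand: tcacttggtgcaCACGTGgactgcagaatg
Ltv1, chr10:13193092-13193121, minus strand: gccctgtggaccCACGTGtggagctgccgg
Nolc1, chr19:46075802-46075846, plus strand: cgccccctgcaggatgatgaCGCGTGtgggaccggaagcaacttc
Bysl, chr17:47611596-47611641, minus strand: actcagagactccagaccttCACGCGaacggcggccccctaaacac

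The first 8 carry CACGTG. Nolc1 and Bysl, shown because they are among the members with the largest differences between day 14 and 24 hours, carry the second form. Against the non-irradiated group, of the 8 genes with CACGTG 0 were called at 6 hours, 2 fell at 24 hours and 2 rose at day 14. Of the 25 genes whose window lacks CACGTG 1 rose and 6 fell at 6 hours, 12 fell at 24 hours, and 11 rose and 1 fell at day 14. Of all genes 12.9% rose and 14.5% fell at 6 hours, 15.7% and 13.8% at 24 hours, and 9.47% and 13% at day 14. From 6 to 24 hours 3 of 8 with CACGTG fell, and of the 25 without it 9 fell and 1 rose (all genes 10.1% lower and 13.7% higher). Between 24 hours and day 14, 7 of 8 with CACGTG and 20 of 25 without it rose (all genes 15.2%), with median log2 changes of 0.61 and 0.84. The difference between genes with and without CACGTG was not tested. A match is a description of these letters and not of binding.

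Myc rose at 6 hours and fell below its starting level at 24 hours. Its signals were 4145, 3370, 3219, 3894 and 3658 in the non-irradiated arrays and 6173, 5665, 6155, 6241 and 6083 at 6 hours. Every array of the 6-hour group lay above every non-irradiated array. The mean signal was 1.66 times as high and the log2 change 0.73 ± 0.091 (limma's SE, n = 5 per group, adjusted p = 5.77e-07).

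At 24 hours the Myc signals were 2554, 3292, 2571, 2582 and 2441. These lay below all 6-hour arrays, with a log2 change of -1.18 ± 0.091 between these times (limma adjusted p = 4.58e-10). Against the non-irradiated group the change was -0.45 (limma adjusted p = 0.000381), and 1 array, at 3292, reached into that group's range. With arrays centred on their medians, the lower level at 24 hours no longer passed (adjusted p = 0.732). By day 14 the signals were 4251, 3750, 3880, 3956 and 3812, again above all 24-hour arrays (0.55, limma adjusted p = 2.01e-05). They overlapped with the non-irradiated arrays (0.11, limma adjusted p = 0.414), a difference that passed only after centring. Myc is represented by 1 probe set. The fall from 6 to 24 hours passed in every setting run, and the rise at 6 hours in every one except a 2-fold minimum.

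**Figure D1:**
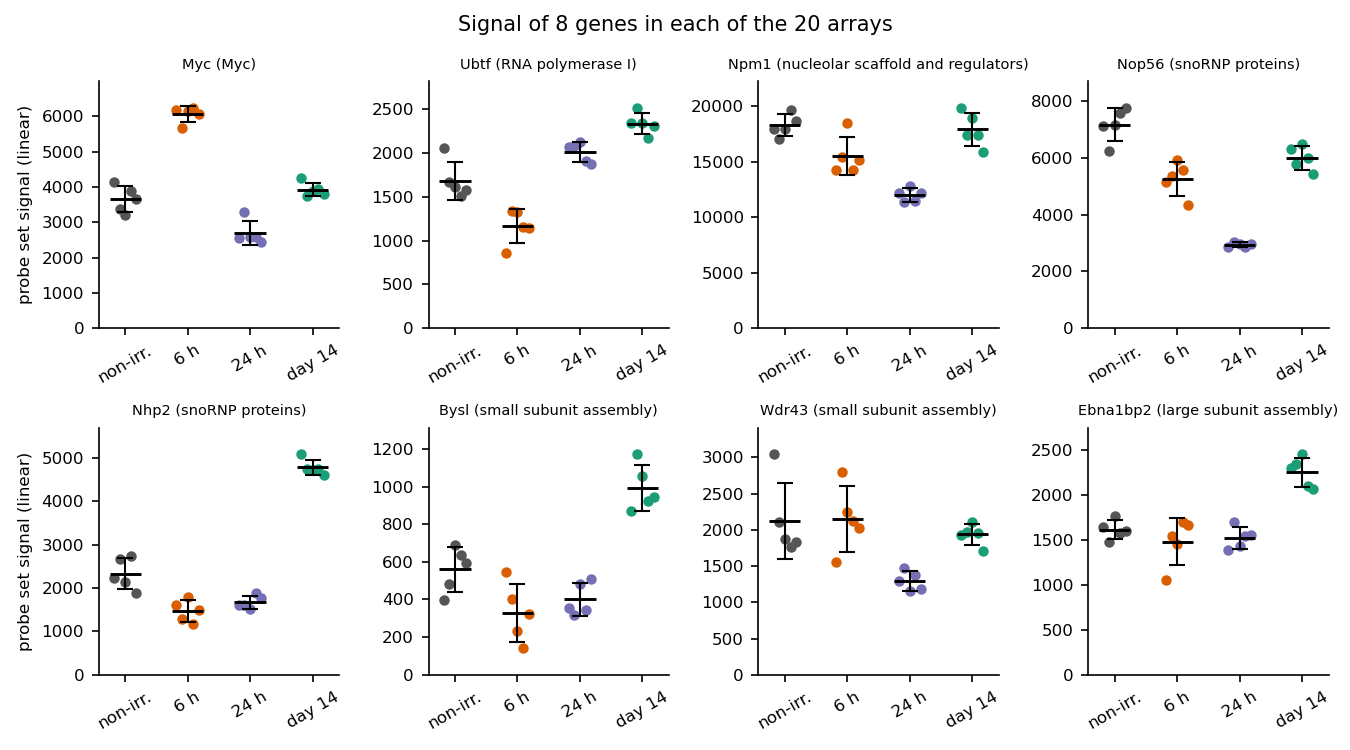
Probe set signal (linear, from 0) of Myc and 7 ribosome biogenesis genes in each of the 20 arrays, by group; dots are arrays, bars the mean and SD of 5 arrays, and heights are not comparable between genes. Myc was highest at 6 hours (5665 to 6241), Nop56 lowest at 24 hours (2863 to 3044) and Nhp2 highest at day 14 (4596 to 5080).

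At 6 hours few of the other members were called in the direction of Myc. Among the 38 genes 2 rose, against 12.9% of all genes tested, and 8 fell, against 14.5%. The median log2 change was -0.19 (all genes -0.02), and it turned to 0.06 when arrays were centred on their medians, with 5 genes higher and 2 lower. After centring 3531 of all genes tested were higher and 1617 lower. Of the 8 snoRNP genes 5 fell; 1 gene fell in each of the polymerase I, nucleolar and small subunit groups, and none of the 8 large subunit genes passed (Pes1, of the PeBoW complex of the large subunit, had the smallest limma adjusted p there, 0.0642).

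Fibrillarin (Fbl), the enzyme that methylates RNA in box C/D snoRNPs, had signals of 4510, 3288, 3828, 3553 and 3718 without irradiation and 2415, 2169, 1976, 2476 and 2391 at 6 hours. The groups did not overlap (-0.72 ± 0.11, limma adjusted p = 7.66e-06), and a second probe set gave -0.73. This fall passed in every setting run other than a 2-fold minimum. The other snoRNP genes that fell were Nop56 (-0.45), a core protein of the same particles, and Gar1 (-0.45), Nhp2 (-0.67) and Nop10 (-0.28), all 3 of the H/ACA particles that make pseudouridine. Of these, Nhp2 still passed after centring, whereas Nop56, Gar1 and Nop10 did not. Nhp2 lost its call without _x_at and _s_at probe sets, where its change was -0.28 (adjusted p = 0.465). Gar1 was also lost without replicate 4 of the non-irradiated group, and Nop10 without any of 5 single arrays (replicates 3, 4 and 5 of the non-irradiated and 2 and 3 of the 6-hour group). Dkc1 did not pass on its brightest probe set. It was called lower with probe sets averaged per gene and without _x_at and _s_at probe sets.

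Ubtf, which binds the ribosomal RNA gene and opens it for polymerase I, read 2062, 1665, 1609, 1512 and 1584 without irradiation and 865, 1341, 1331, 1160 and 1146 at 6 hours. All irradiated arrays were lower (-0.54 ± 0.12, limma adjusted p = 0.0014), and the second probe set gave -0.63. After centring the fall no longer passed (adjusted p = 0.14). Bysl (bystin), which helps mature the small subunit, read 397, 481, 691, 638 and 592 without irradiation against 545, 401, 235, 142 and 324. Its groups overlapped (-0.88 ± 0.27, limma adjusted p = 0.0146), and the call was lost after centring, in the fit of these 2 groups alone and without replicate 4 of the 6-hour group.

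Npm1 (nucleophosmin), a scaffold protein of the nucleolus, read 17918, 17005, 17964, 19681 and 18686 without irradiation and 14209, 15438, 18445, 14219 and 15122 at 6 hours. One irradiated array reached the non-irradiated range. The change of -0.24 (limma adjusted p = 0.00978) turned to 0.01 after centring. Ddx21, a nucleolar RNA helicase, was called higher besides Myc: it read 3217, 3283, 3625, 3690 and 3342 and then 4845, 3599, 4197, 3919 and 4212. Its change of 0.27 (limma adjusted p = 0.0205) rested on 1 probe set, the other giving -0.27, and it was lost after quantile normalization and in 5 other settings, among them without replicate 1 of either group.

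The spread within the 6-hour group was wider than elsewhere for these genes. Their median SD over 5 arrays, in log2 units, was 0.44 at 6 hours against 0.17 without irradiation, 0.19 at 24 hours and 0.15 at day 14. All genes tested had medians of 0.65, 0.40, 0.34 and 0.33 in those groups. Polr1a, the largest subunit of polymerase I, had a change of -0.84 at 6 hours with an SD of 0.96 there and did not pass (limma adjusted p = 0.0663). Myc had the smallest SD of the 38 genes at 6 hours, at 0.056.

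At 24 hours more members were called lower. Of the 38 genes 17 fell, against 13.8% of all genes, and 0 rose, against 15.7%. The median log2 change was -0.45 (all genes -0.07), and 34 of the 38 had a fitted change below 0. After centring 5 genes fell, 1 rose and the median was -0.07, while of all genes tested 1139 fell and 4950 rose. The members' median lay -0.38 from that of all genes in the deposited scaling. Centring cannot change this distance, because it shifts all genes of an array by the same amount. After quantile normalization 19 fell and this distance was -0.55.

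Of the snoRNP genes 7 of 8 fell, the largest share of any role with more than 1 gene (4 of 8 after centring). Nop56 read 7142, 6243, 7163, 7599 and 7768 without irradiation and 2867, 3044, 2985, 2863 and 2986 at 24 hours. The ranges were far apart. Averaged on the log2 scale, the signal without irradiation was 2.43 times that at 24 hours (-1.28 ± 0.085, limma adjusted p = 9.10e-12). The second probe set of Nop56 gave -1.10. Dkc1 (dyskerin), the pseudouridine synthase of H/ACA particles, changed by -0.92, its partner Gar1 by -0.88, and Nop58, the partner of Nop56, by -0.78. Fbl (-0.66), Nhp2 (-0.47) and Nop10 (-0.45) also fell, while Rrp9, specific to the U3 snoRNP, did not pass (-0.37, limma adjusted p = 0.406).

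In the nucleolar group 4 of 6 genes fell. Npm1 read 12194, 11380, 12770, 11424 and 12184 at 24 hours, below all non-irradiated arrays (-0.61 ± 0.070, limma adjusted p = 1.49e-07). Gnl3 (nucleostemin), a GTPase of dividing and stem cells, changed by -1.04, Nolc1, which binds snoRNPs, by -0.80, and Ncl (nucleolin) by -0.58. Ddx21 (-0.11) and Mybbp1a (-0.30) did not pass.

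Of the polymerase I genes 2 of 5 fell. Polr1c, a subunit shared with polymerase III, read 2589, 2621, 2592, 2404 and 2791 without irradiation and 1507, 1655, 1427, 1486 and 2481 at 24 hours. Its replicate 5 stood among the non-irradiated values and the other 4 arrays below them (-0.63 ± 0.18, limma adjusted p = 0.00789). Polr1b, a catalytic subunit, changed by -0.86 but lost its call after quantile normalization, after centring and without any of replicates 1 and 2 of the non-irradiated group or 2, 4 and 5 of the 24-hour group.

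Among the assembly factors 2 of 10 small subunit genes and 1 of 8 large subunit genes fell, and 0 of either after centring, where their medians turned from -0.31 to 0.07 and from -0.20 to 0.18. Wdr43, part of the complex that loads first on the precursor RNA, read 3042, 2106, 1876, 1762 and 1834 and then 1292, 1473, 1154, 1371 and 1178. All irradiated arrays were lower (-0.69 ± 0.15, limma adjusted p = 0.000794). Tsr1, a late small subunit factor, changed by -0.69, a call lost without any of replicates 3 and 5 of either group, and Wdr12, of the PeBoW complex, changed by -0.90. Wdr12 read 1223, 1115, 1098, 1224 and 920 without irradiation and 574, 378, 659, 699 and 751 at 24 hours (limma adjusted p = 0.0178), with no overlap, and without replicate 2 of the 24-hour group it no longer passed.

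The calls of Nop56, Gnl3, Dkc1, Gar1 and Nop58 at 24 hours held in every setting run, apart from a 2-fold minimum that Nop56 and Gnl3 passed and the other 3 did not. The other 12 were each lost in some setting, all 12 of them after centring.

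**Figure D2:**
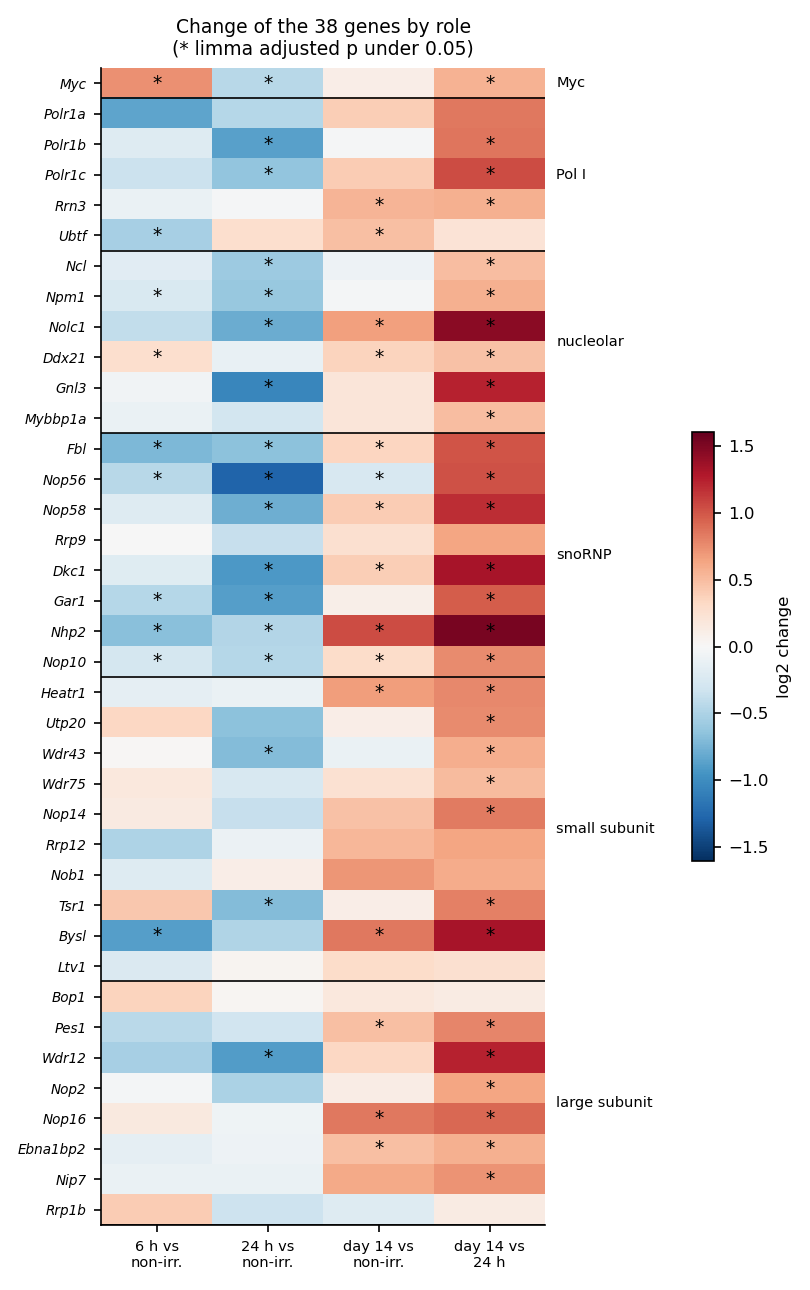
Log2 change (colour, red higher and blue lower) of each of the 38 genes in 4 comparisons, grouped by role; a star marks a limma adjusted p under 0.05. The 24-hour column holds 17 stars, all lower, and the column of day 14 against 24 hours 30, all higher; against the non-irradiated group the median change at 6 hours turned from -0.19 to 0.06 when arrays were centred.

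Between 6 and 24 hours 14 of the 38 genes fell (all genes 10.1%) and 1 rose (all genes 13.7%), with a median log2 change of -0.36 (all genes -0.05). Next to Myc the largest falls were those of Tsr1 (-1.12), Utp20 (-0.99) and Gnl3 (-0.99). The small subunit group, with 1 fall at 6 hours against non-irradiated cells, held 4 here. Ubtf was the gene that rose: at 24 hours it read 2075, 2076, 2129, 1913 and 1878, above all 6-hour arrays (0.80 ± 0.12, limma adjusted p = 2.22e-05), and its second probe set gave 0.54. Tsr1's 6-hour mean of 4016 had an SD of 2669 because replicate 3 read 8644, but its fall also passed without that array. The falls of Wdr75 (-0.43) and Gar1 (-0.43) were lost without single arrays, Wdr75 without replicate 4 of the 24-hour group and Gar1 without replicate 5 of the 6-hour or 1, 2, 4 or 5 of the 24-hour group. Without _x_at and _s_at probe sets the falls of Nop56 and Dkc1 between these times were lost. After centring, 9 genes fell and the median was -0.23.

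At day 14 most called members were higher. Of the 38 genes 14 rose against the non-irradiated group (all genes 9.47%) and 1 fell (all genes 13%), with a median log2 change of 0.34 (all genes -0.18). These counts depended on the scaling: 5 rose and 1 fell after quantile normalization, and 38 rose and 0 fell after centring. Of all 18193 genes 1779 rose and 1135 fell after quantile normalization, and 8210 rose and 461 fell after centring. The members' median lay 0.52 from that of all genes in the deposited scaling and 0.03 after quantile normalization. Centring cannot change this distance. The members' counts also depended on single arrays. Without replicate 1 of the non-irradiated group 8 rose, and 9 without its replicate 2. Without replicate 1 of the day 14 group 8 rose, and 9 without its replicate 3.

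Nhp2, an RNA-binding protein of H/ACA particles, had the largest rise. It read 2225, 2663, 2148, 2730 and 1886 without irradiation and 5080, 4738, 4730, 4753 and 4596 at day 14, ranges that did not meet. Averaged on the log2 scale, its signal was 2.07 times as high (1.05 ± 0.12, limma adjusted p = 8.11e-07), and a second probe set gave 1.21. This was the 1 call of the 15 that held in every setting run, the 2-fold minimum included. Other snoRNP genes that rose were Nop58 (0.41), Dkc1 (0.39), Fbl (0.34) and Nop10 (0.30), all 4 lost after quantile normalization. Fbl was also lost without replicate 2 of the non-irradiated group or 1 of the day 14 group, Nop10 without replicate 1 or 2 of the former or 1 or 3 of the latter, and Dkc1 without replicate 1 or 2 of the former or 1, 2 or 3 of the latter.

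Nop56 was the exception. It read 6323, 5797, 6484, 5990 and 5436 at day 14, overlapping with the non-irradiated arrays, and was called lower (-0.26, limma adjusted p = 0.0316). Its change was 0.64 after centring, 0.06 on its second probe set, and the call was lost without any of 7 single arrays (replicates 1, 3, 4 and 5 of the non-irradiated group and 2, 4 and 5 of the day 14 group).

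In the nucleolar group Nolc1 read 2054, 1797, 2044, 1856 and 2158 and then 3250, 3324, 3101, 3105 and 2788. All day 14 arrays were higher (0.65 ± 0.16, limma adjusted p = 0.00464). Ddx21 rose by 0.35, while Ncl (-0.08) and Npm1 (-0.03) did not pass, both turning to rises after centring (0.81 and 0.87) and Npm1 after quantile normalization too (0.31). In the polymerase I group Ubtf read 2348, 2517, 2348, 2169 and 2312, above all non-irradiated arrays (0.48 ± 0.12, limma adjusted p = 0.00642), and Rrn3 rose by 0.54. After quantile normalization the calls of Nolc1 (adjusted p = 0.0587), Ddx21, Ubtf (adjusted p = 0.102) and Rrn3 were lost. Rrn3 also did not pass without any of replicates 1 and 4 of the non-irradiated and 1, 2 and 4 of the day 14 group.

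Of the small subunit genes Bysl and Heatr1, a large scaffold protein of the early complex, rose. Bysl read 869, 1171, 1057, 925 and 945 at day 14, above all non-irradiated arrays (0.85 ± 0.27, limma adjusted p = 0.0241), but its second probe set gave -0.51 and the call was lost without any of replicates 1 and 2 of the non-irradiated group and 2 and 3 of the day 14 group. Heatr1 changed by 0.66 on its brightest probe set and by 0.13 and -1.93 on its other ones, and its call was lost after quantile normalization and without any single non-irradiated array, any of replicates 1, 3, 4 and 5 of the day 14 group or replicate 3 of the 24-hour group.

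In the large subunit group Nop16 (0.85), Ebna1bp2 (0.48) and Pes1 (0.48) rose. Ebna1bp2 read 1642, 1475, 1765, 1583 and 1599 and then 2302, 2346, 2453, 2100 and 2072 with no overlap (limma adjusted p = 0.00651). After quantile normalization Ebna1bp2 and Pes1 no longer passed, and Pes1 was lost without any single day 14 array or any of replicates 1, 3, 4 and 5 of the non-irradiated group. The dimmer probe sets of Ebna1bp2 gave -1.74 and -0.14, most of their arrays not above background, and that of Nop16 gave -0.36.

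From 24 hours to day 14 all 38 genes had a fitted change above 0. Of these 30 rose (all genes 15.2%) and 0 fell (all genes 21.7%), with a median of 0.76 on the log2 scale (all genes -0.27). This comparison shares its 24-hour and day 14 arrays with those against the non-irradiated group, which in turn share the non-irradiated arrays, so the counts are not independent of each other. Under quantile normalization 31 rose and under centring 38, the median being 0.73 and 1.27, and 0 fell in each. Of all genes tested 2837 rose and 2855 fell under quantile normalization, and 4971 rose and 1687 fell under centring. The distance of the members' median from that of all genes was 1.02 in the deposited scaling and 0.71 after quantile normalization.

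The largest rises were those of Nhp2 (1.52 ± 0.12, limma adjusted p = 2.36e-10), Nolc1 (1.45 ± 0.16), Bysl (1.32 ± 0.27) and Dkc1 (1.31 ± 0.13). Averaged on the log2 scale, the signal of Nhp2 was 2.87 times as high at day 14 as at 24 hours, and that of Nolc1 2.73 times as high. All 6 nucleolar genes rose, from Ddx21 (0.47) to Nolc1. Of the snoRNP genes 7 of 8 rose, and those next after Nhp2 and Dkc1 were Nop58 (1.18), Nop56 (1.02) and Fbl (1.00). In the polymerase I group Polr1c (1.04), Polr1b (0.85) and Rrn3 (0.57) rose.

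Of the small subunit genes 7 of 10 rose, among them Nop14 (0.84), Tsr1 (0.80) and Utp20 (0.76), a large scaffold protein. Of the large subunit genes 6 of 8 rose, led by Wdr12 (1.23), Nop16 (0.91) and Pes1 (0.79), whereas Bop1, the third protein of the PeBoW complex, did not pass (0.13, limma adjusted p = 0.656; -0.14 with its probe sets averaged). With probe sets averaged per gene Wdr12 (0.64), Nop16 (0.37), Pes1 (0.0076) and Ebna1bp2 (0.26) lost their calls, so that Nop2 and Nip7 were the 2 of 8 large subunit genes still called. The others that did not pass were Polr1a (0.84, limma adjusted p = 0.0515), Ubtf (0.22), Rrp9 (0.63), Rrp12 (0.63), Nob1 (0.60), Ltv1 (0.25) and Rrp1b (0.13). Second probe sets gave the opposite sign for Bysl (-0.09), Heatr1 (-0.64), Nop16 (-0.18), Pes1 (-0.77) and Wdr75 (-0.40), none of them past the threshold. With the 2-fold minimum left aside, 18 of the 30 calls held in every setting run, and no setting turned the sign of any of the 30. Single arrays ended the calls of Polr1b (replicates 2 and 5 of the 24-hour and 4 and 5 of the day 14 group), Rrn3 (24-hour replicate 2), Nop14 (24-hour replicate 5), Utp20 (24-hour replicates 2 and 3 and day 14 replicate 5), Nop2 (24-hour replicate 1 and day 14 replicate 3) and Nip7 (24-hour replicates 1 and 2 and day 14 replicate 3).

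**Figure D3:**
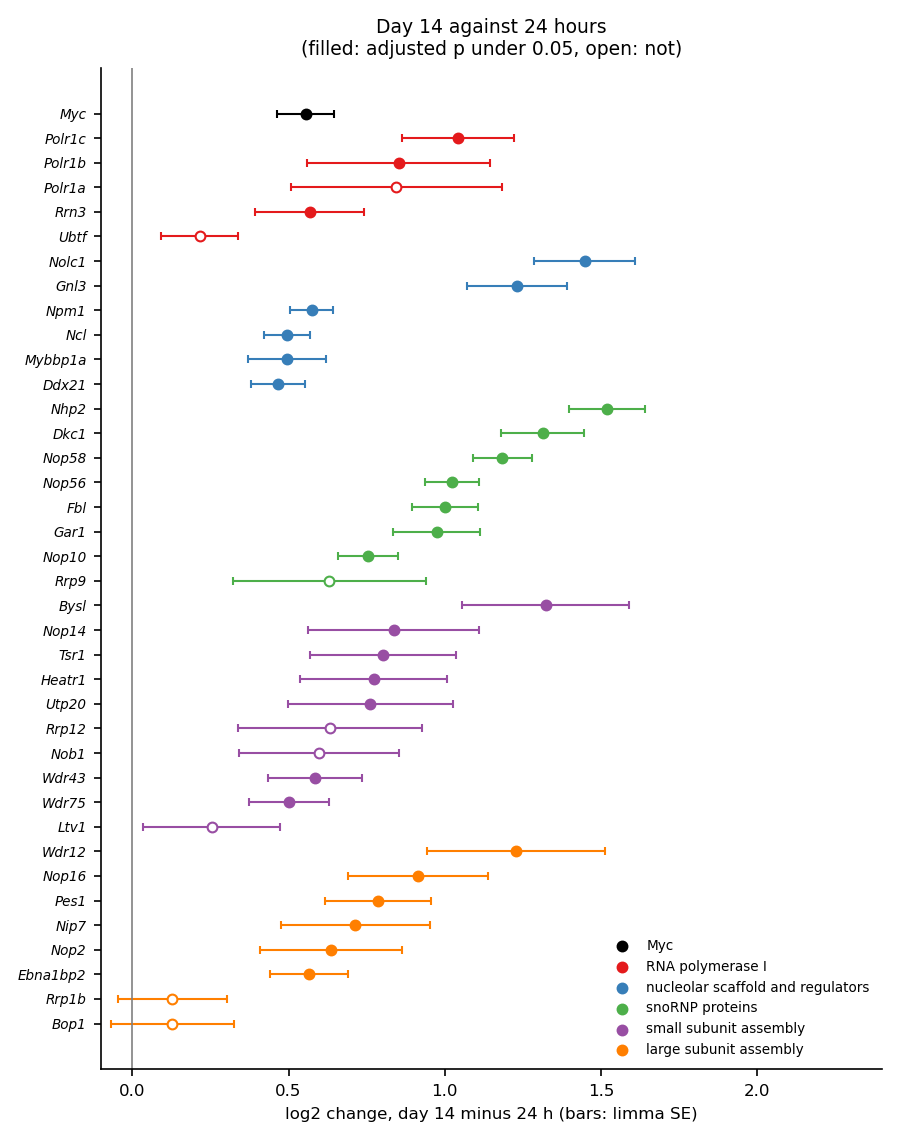
Log2 change from 24 hours to day 14 (x axis) with limma's SE for each of the 38 genes, sorted within role; filled points passed an adjusted p under 0.05. All 38 points lie above 0, from 0.13 for Bop1 and Rrp1b to 1.52 for Nhp2.

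Across the 4 groups, the lowest mean was that of the 24-hour group for 24 of the 38 genes (63.2%; all genes 19.98%) and that of the 6-hour group for 13 (34.2%; all genes 24.0%). The highest mean fell on day 14 for 28 of the 38 (73.7%; all genes 21.8%). Myc, Utp20, Wdr43, Tsr1 and Rrp1b were highest at 6 hours and lowest at 24 hours. Polr1b, Ncl, Npm1 and Nop56 were highest without irradiation.

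The other genes of the pathway were counted in the same way. Of 105 further ribosome biogenesis genes measured, 9 rose and 19 fell at 6 hours, 2 rose and 27 fell at 24 hours, and 33 rose and 4 fell at day 14 against the non-irradiated group. In percent these were 8.57% higher and 18.1% lower at 6 hours (all genes 12.9% and 14.5%), 1.90% and 25.7% at 24 hours (all genes 15.7% and 13.8%) and 31.4% and 3.81% at day 14 (all genes 9.47% and 13%). The medians were -0.13, -0.21 and 0.37, and after centring 0.12, 0.18 and 1.27, so the lower medians at 6 and 24 hours turned to higher ones. After quantile normalization 22 of the 105 rose and 2 fell at day 14 against the non-irradiated group, with a median of 0.36. The distance of their median from that of all genes was then 0.17, against 0.55 in the deposited scaling. The day 14 rise of these genes thus also depended on the scaling. Between 24 hours and day 14, 55 rose and 1 fell, 52.4% and 0.952% against 15.2% and 21.7% of all genes (median 0.53; 0.55 after quantile normalization and 1.05 after centring).

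Subunits of the RNA exosome, which trims ribosomal RNA precursors, had the largest share of falls at 6 hours among the lists of pathway genes outside the 38. Of 13, 7 fell (53.8%, all genes 14.5%) and 1 rose (7.69%, all genes 12.9%). The median was -0.53 (-0.29 after centring, where 2 rose and 4 fell). Of all 18193 genes 3531 rose and 1617 fell at 6 hours after centring. Exosc2 changed by -0.98, Exosc8 by -0.87 and Mphosph6, a cofactor, by -0.84. At 24 hours 6 fell (46.2%, all genes 13.8%), among them Exosc2 (-1.23), Exosc8 (-0.99) and Exosc7 (-0.91). After centring 3 fell at that time (1139 of all 18193 genes) and the median turned from -0.26 to 0.12. In the deposited scaling 5 rose at day 14 (38.5%, all genes 9.47%), led by Exosc5 (0.93), Exosc9 (0.78) and Exosc8 (0.67).

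After centring the balance of the assembly factors outside the 38 turned. At 6 hours 9 of 36 small subunit factors rose and 2 fell, and 6 of 44 large subunit factors rose and 1 fell. At 24 hours 8 and 5 rose and 0 fell. Of all 18193 genes 3531 rose and 1617 fell at 6 hours after centring, and 4950 and 1139 at 24 hours. The turn was therefore not particular to these factors. Centring also raised the median change of all genes, by 0.25 at 6 hours and by 0.38 at 24 hours. In the deposited scaling, of 36 further small subunit factors 15 rose (41.7%, all genes 9.47%) and 1 fell (2.78%, all genes 13%) at day 14. Pno1 (0.93), Utp6 (0.92) and Imp3 (0.90) were at the top. At 6 hours 3 of them rose (8.33%, all genes 12.9%), among them Nol10 (1.06) and Krr1 (0.95). At that time 4 fell (11.1%, all genes 14.5%), among them Nop9 (-1.10). At 24 hours 1 rose (2.78%, all genes 15.7%) and 5 fell (13.9%, all genes 13.8%), among the falls Emg1 (-0.75), Wdr46 (-0.64) and Rcl1 (-0.61). Of 44 further large subunit factors 4 rose (9.09%, all genes 12.9%) and 6 fell (13.6%, all genes 14.5%) at 6 hours. Wdr18 (-1.71), Ddx55 (-1.27) and Ddx51 (-0.94) changed most. At 24 hours 12 fell (27.3%, all genes 13.8%) and 0 rose (all genes 15.7%). Mdn1 (-0.99), the large ATPase of 60S particles, Ddx27 (-0.88) and Nvl (-0.87) changed most. At day 14 11 rose (25%, all genes 9.47%) and 1 fell (2.27%, all genes 13%), with Surf6 (0.92), Eif6 (0.78) and Nifk (0.75) changing most.

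Of 12 further polymerase I factors 1 rose (8.33%; all genes 12.9%) and 2 fell (16.7%; all genes 14.5%) at 6 hours, where Polr1e changed by 0.75, Twistnb by -0.58 and Polr1d by -0.35. At 24 hours 1 rose (8.33%, all genes 15.7%) and 4 fell (33.3%, all genes 13.8%). The largest changes were those of Taf1c (-1.23) and Taf1d (-0.73) of the promoter selectivity factor and of Znrd1 (0.56), a subunit. At day 14 2 rose and 2 fell, 16.7% each against 9.47% and 13% of all genes. The rises were those of Znrd1 (0.70) and Polr1d (0.65). The falls were those of Taf1a (-0.99) and Taf1d (-0.52), the latter 0.38 after centring.

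Partners and antagonists of Myc were measured by 12 genes. At 6 hours 2 rose and 2 fell, 16.7% each against 12.9% and 14.5% of all genes: Mxi1 (-1.24) and Mxd1 (-1.15), which compete with Myc for Max, fell, and Mxd4, of the same family, rose by 0.86. At 24 hours Mxd4 was higher (0.66) and Mxd3 lower (-0.97), 8.33% each against 15.7% and 13.8% of all genes. At day 14 0 rose (all genes 9.47%) and 2 fell (16.7%, all genes 13%). Mycn, a paralog of Myc, changed by -1.72 and Mxd1 by -0.47, the latter turning to 0.43 after centring. Mxd1 itself changed by -0.01 at 24 hours. After centring, which raised the median change of all genes by 0.90 at day 14, 10 of the 12 were higher then and 0 lower. Of all 18193 genes 8210 were higher and 461 lower at day 14 after centring.

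Known Myc targets outside the ribosome pathway were measured by 23 genes. At 6 hours 3 rose (13.0%, all genes 12.9%) and 8 fell (34.8%, all genes 14.5%). The median was -0.18 (0.07 after centring, where 6 rose and 6 fell). Of all 18193 genes 3531 rose and 1617 fell at 6 hours after centring. Ccnd2 (cyclin D2) rose by 1.91, while C1qbp changed by -0.95 and Tfrc (transferrin receptor, also an erythroid marker) by -2.63. At 24 hours 3 rose (13.0%, all genes 15.7%) and 13 fell (56.5%, all genes 13.8%). After centring 7 rose and 3 fell at 24 hours, beside 4950 and 1139 of all 18193 genes. Ccnd2 stood at 1.76, Odc1 (ornithine decarboxylase) at -0.90 and Tfrc at -4.41. By day 14, in the deposited scaling, 13 rose (56.5%, all genes 9.47%) and 0 fell (all genes 13%) against the non-irradiated group. The rises were led by Slc7a5 (1.31), an amino acid transporter, Prmt1 (0.96) and Shmt2 (0.87). Their count after quantile normalization is not given here.

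**Figure D4:**
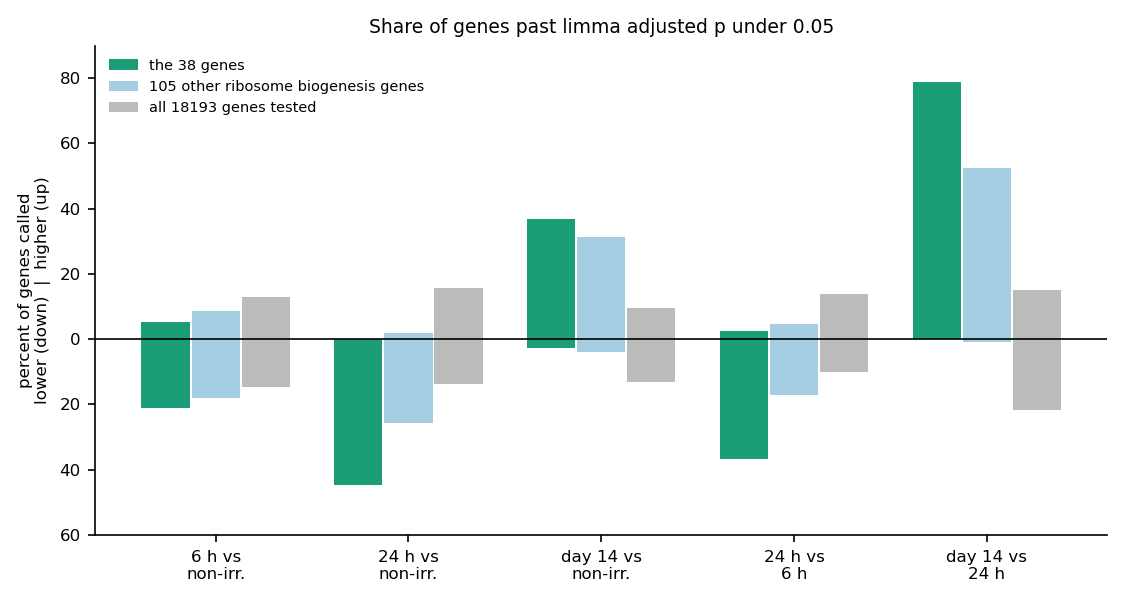
Percent of genes called higher (up) and lower (down) at a limma adjusted p under 0.05 in 5 comparisons, for the 38 genes, 105 other ribosome biogenesis genes and all 18193 genes tested. The 38 genes had 17 called lower at 24 hours and 30 called higher from 24 hours to day 14. Their 6-hour median turned from -0.19 to 0.06 after centring. At day 14 against non-irradiated cells 14, 5 or 38 were called higher with the deposited scaling, quantile normalization or centring. Of all 18193 genes 1723, 1779 or 8210 were called higher in the same order.

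In the deposited scaling, mean changes of erythroid and proliferation markers had the same sign as the 38 genes at each time. Those of endothelial, megakaryocyte and stromal markers had the opposite sign at each time, and the other lists followed neither pattern throughout. Marker values after centring or quantile normalization are not given here. Centring turned the members' median at 6 hours to 0.06 and raised the median change of all genes by 0.90 at day 14, so the signs can differ there. The mean log2 level of the 38 genes over an array differed from the non-irradiated mean by -0.16 ± 0.11 (SD, n = 5) at 6 hours, -0.44 ± 0.027 at 24 hours and 0.33 ± 0.037 at day 14. Over 12 measured of 15 listed erythroid markers the same value was -3.10 ± 0.49, -4.49 ± 0.35 and 0.36 ± 0.095. Their summed signal was 50750 to 54339 without irradiation, 5670 to 10028 at 6 hours, 2360 to 3080 at 24 hours and 61316 to 74455 at day 14. Of these 11 of 12 fell at 6 and at 24 hours (all genes 14.5% and 13.8%). At day 14 against the non-irradiated group 2 of 12 rose and 0 fell (all genes 9.47% and 13%), and 3 had a fitted change below 0. From 24 hours to day 14 11 of 12 rose (all genes 15.2%). Rhag was at or below background in 4 of 5 arrays at 6 hours and in 5 of 5 at 24 hours, and Rhd in 3 of 5 at each, while Klf1, Gata1 and Epor stayed above background on every array.

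Proliferation markers, 11 of 12 listed, changed on average by -1.69 ± 0.17, -1.62 ± 0.023 and 0.42 ± 0.080, with summed signals of 64172 to 71037, 20548 to 26059, 20678 to 21901 and 68553 to 82846 in the 4 groups in time order. All 11 fell at 6 and at 24 hours (all genes 14.5% and 13.8%). At day 14 against the non-irradiated group 5 of the 11 rose and 1 fell (all genes 9.47% and 13%). Between 6 and 24 hours 2 of the 11 rose and 2 fell (all genes 13.7% and 10.1%), beside 14 falls among the 38 genes. The 15 endothelial markers went the other way, by 1.71 ± 0.072, 0.68 ± 0.035 and -0.65 ± 0.070, with summed signals of 16511 to 19141, 56188 to 62163, 28034 to 29872 and 10747 to 11894. The 10 leukocyte markers changed by -0.27 ± 0.054, 0.02 ± 0.055 and -0.28 ± 0.038. Over 7 of 8 listed B-lineage markers the values were -1.06 ± 0.43, -1.64 ± 0.25 and -0.32 ± 0.19. Of the 7, 1 was called higher and 2 lower at 6 hours (all genes 12.9% and 14.5%), and 1 and 4 at 24 hours (all genes 15.7% and 13.8%). At day 14 0 were called higher and 0 lower (all genes 9.47% and 13%). From 24 hours to day 14 3 were called higher and 1 lower (all genes 15.2% and 21.7%). Their summed signals were 2332 to 2735, 1590 to 3228, 2264 to 2833 and 2133 to 2375, and Rag1 was at or below background in all 5 arrays at 6 and at 24 hours. The 13 granulocyte and monocyte markers changed by -0.66 ± 0.19, -0.20 ± 0.11 and -0.30 ± 0.081, the 6 megakaryocyte markers by 1.52 ± 0.15, 0.47 ± 0.053 and -0.40 ± 0.12, and the 6 stromal markers by 0.30 ± 0.15, 0.40 ± 0.058 and -0.19 ± 0.051. The part of these lists in the changes of the 38 genes was not tested.

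**Figure D5:**
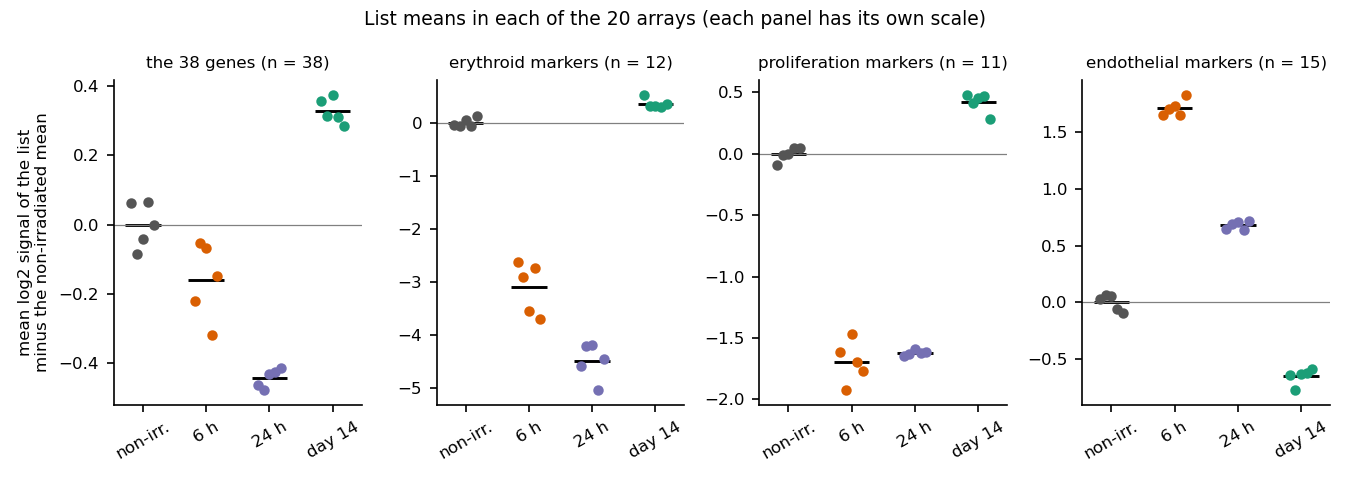
Mean log2 signal of a list minus its non-irradiated mean, in each of the 20 arrays, for the 38 genes and 3 marker lists; dots are arrays, bars group means, and each panel has its own scale. The 38 genes fell to -0.44 at 24 hours and stood at 0.33 at day 14, the erythroid markers at -4.49 and 0.36, the proliferation markers at -1.62 and 0.42 and the endothelial markers at 0.68 and -0.65; with arrays centred on their medians the members' median at 24 hours was -0.07.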

How the data were processed

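Cells of 20 samples were measured on 20 arrays. The authors deposited 1 table of linear probe set intensities, and its arrays share 1 trimmed mean (2% trimmed at each end), as tested on the values. Affymetrix Expression Console and the Transcriptome Analysis Console are listed in the submitters' processing notes, and the summarization method is not given in the sources used here. Per the labels, RNA was amplified with the NuGEN Ovation system. Of 45101 probe sets 34945 had 1 gene symbol, and each gene was represented by its brightest one, giving 18193 genes.

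Values were analysed as log2(signal + 1), so fold changes of dim genes are understated, with limma 3.58.1 in R 4.3.3 (lmFit, eBayes with trend, 1 model of 4 groups, tested on simulated data). A gene was called higher or lower where its two-sided p, adjusted by Benjamini-Hochberg across the genes tested, was under 0.05. P-values of second probe sets were adjusted over all probe sets. Background was the 95th percentile of 27 bacterial control probe sets of an array (17.5 to 51.5), and all 38 genes were above it on all arrays. Of the 38 genes 25 had several probe sets. The number of arrays limits the precision.

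The members and the lists were chosen with earlier results of these data known, so lists are described by counts and medians with no test. Every array's values are given for Myc, for the gene of each role with the smallest adjusted p at each time against the non-irradiated group and for genes called against the majority. From the other pathway lists up to 3 called genes with the largest change per time are named. The comparisons share control samples. Alternatives were quantile normalization, centring on array medians, a filter on dim genes, averaging all probe sets per gene, no _x_at or _s_at probe sets, a pseudocount of 16, only the groups compared, array weights, the replicate number as a block, a 2-fold minimum and each array left out. Listing the other pathway genes and markers under quantile normalization and centring was added after seeing the data. Promoter windows were RefSeq's, and plots were made in Python 3.11.15 (matplotlib 3.10.9).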

Additional observations from a re-analysis of the deposited data

Results flagged for a closer look

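In 13 of 152 groups of 5 arrays screened, 1 array stood apart from the other 4 (gap over range above 0.71), where chance flags about 1 in 20 groups. Of these 7 were in the 24-hour group: Myc replicate 2 (3292, others 2441 to 2582), Polr1c replicate 5 (2481), Nolc1 replicate 5 (1506), Gar1 replicate 3 (3661), Heatr1 replicate 4 (821), Nop2 replicate 1 (472) and Rrp1b replicate 1 (719, others 895 to 953). No single array of that group recurred in more than 2 of the genes. At 6 hours they were Myc replicate 2 (5665) and Tsr1 replicate 3 (8644, others 2140 to 3818). Without irradiation replicate 1 stood high in Ubtf (2062) and Wdr43 (3042). At day 14 replicate 3 stood low in Rrn3 (1238) and high in Nop2 (1177).

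Between 6 and 24 hours and between 24 hours and day 14, the pairs of times compared directly, 7 genes were called in opposite directions against the non-irradiated group with the direct comparison past the threshold (limma). Myc was 0.73 at 6 hours and -0.45 at 24 hours, a difference of -1.18. Between 24 hours and day 14 they were Nolc1 (1.45), Fbl (1.00), Nop58 (1.18), Dkc1 (1.31), Nhp2 (1.52) and Nop10 (0.75), 5 of the 6 being snoRNP genes. How many of all genes met this rule is not given here. After centring the 24-hour calls of Myc, Nolc1, Fbl, Nhp2 and Nop10 were lost. After quantile normalization the day 14 calls of Nolc1, Fbl, Nop58, Dkc1 and Nop10 were lost. Ubtf, Bysl, Fbl, Nhp2 and Nop10 were called lower at 6 hours and higher at day 14, and the direct difference between those times was not tested.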

How the results depend on the processing

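With arrays centred on their medians, 5 members were higher and 2 lower at 6 hours (median 0.058), 1 higher and 5 lower at 24 hours (median -0.072), 38 higher and 0 lower at day 14 (median 1.24), and 9 lower from 6 to 24 hours (median -0.23). From 24 hours to day 14 the median was 1.27. All genes shifted too: 3531 were higher and 1617 lower at 6 hours, 4950 and 1139 at 24 hours, 8210 and 461 at day 14 and 4971 and 1687 from 24 hours to day 14. After quantile normalization 1 member was higher at 6 hours and 5 at day 14 (median 0.22), and of all genes 1779 were higher and 1135 lower at day 14 and 2837 and 2855 from 24 hours to day 14. Among genes past the threshold before or after the change of setting, signs turned for Npm1 at 6 hours when centred (0.0073) and, at day 14, for Npm1 (0.31 by quantiles, 0.87 centred), Polr1b (0.89), Ncl (0.81), Nop56 (0.64), Wdr43 (0.79) and Rrp1b (0.69), all 5 centred. With probe sets averaged per gene Heatr1 (-0.38), Wdr75 (-0.70) and Ebna1bp2 (-0.47) turned at day 14 and Heatr1 (-0.50) from 6 to 24 hours; the medians were -0.55 at 24 hours, 0.21 at day 14 and 0.64 from 24 hours to day 14. Without _x_at and _s_at probe sets Nop56 turned at day 14 (0.059), leaving 0 lower, and the median from 6 to 24 hours was -0.26. Counting also genes past the threshold in neither, 20 of the 38 took the other sign in some setting at 6 hours, 16 at 24 hours, 17 at day 14, 6 from 6 to 24 hours and 1 from 24 hours to day 14.

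In the fit of 2 groups alone and with array weights, 1 member was higher at 6 hours and 1 at 24 hours. At a 2-fold minimum 0 were higher and 0 lower at 6 hours, 2 lower at 24 hours, 1 higher and 0 lower at day 14, 0 higher and 2 lower from 6 to 24 hours and 10 higher from 24 hours to day 14. The filter on dim genes and the pseudocount moved no such count or median beyond these limits.

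Leaving out 1 array gave, at 6 hours, 1 to 3 higher, 7 to 10 lower and medians of -0.22 to -0.13; at 24 hours 0 to 1, 15 to 19 and -0.50 to -0.42; at day 14 8 to 16, 0 to 1 and 0.28 to 0.35; from 6 to 24 hours 1 to 2, 12 to 16 and -0.44 to -0.26; and from 24 hours to day 14 26 to 32, 0 and 0.70 to 0.77. Without non-irradiated replicate 1 there was 1 higher at 6 hours and 1 at 24 hours, and without 6-hour replicate 4 there were 2 higher from 6 to 24 hours. Same-numbered arrays did not pair: the 30 correlations of their deviations ran from -0.067 to 0.049, and 10 were the best with their own number. With the replicate block 2 were higher and 8 lower at 6 hours, 0 and 17 at 24 hours, 15 and 1 at day 14, 1 and 14 from 6 to 24 hours and 30 and 0 from 24 hours to day 14. The cause of these changes was not tested.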
